A study of Mus musculus with 16 samples.

Results

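The cytosolic ribosomal protein genes were followed in 16 libraries of mouse glomerular RNA. Members were chosen by symbol (Rpl or Rps followed by a digit, or Rplp0, Rplp1, Rplp2 and Rpsa, without the Rps6k kinases and without symbols of named pseudogenes) and selected on their level, with at least 1 FPKM in at least 7 of the 16 libraries. FPKM counts fragments relative to the length of the transcript and to the fragments mapped in the library. Of 25791 symbols, 86 had such a name and 83 passed the level rule, 49 named for the large subunit and 34 for the small subunit. All 83 were among the 13286 genes tested. Because the rule used the level, levels are given as a description.

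All mice were of the db/db eNOS-/- genotype, which joins a defect of the leptin receptor, with obesity and diabetes, to the loss of endothelial nitric oxide synthase. The untreated group had 9 libraries. The RAAS-blocked group had 7 libraries, from mice whose drinking water held lisinopril (20 mg/day), which inhibits angiotensin-converting enzyme, and losartan (30 mg/day), which blocks the receptor of angiotensin II. Treatment began at 10 to 12 weeks of age and ended at 26 weeks. Both groups carry the same genotype, and mice without diabetes were not analysed here. Glomeruli came from 1 kidney perfused with iron particles and were collected with a magnet. The labels do not state for each library that it is a separate mouse, so the tests take the spread from library to library as their error.

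As a check of the labels, Ren1, the renin gene, whose message is known to rise when angiotensin signalling is blocked, averaged 64.7 FPKM ± 76.1 (SD, n = 9) in untreated and 982 FPKM ± 579 (SD, n = 7) in RAAS-blocked libraries (limma adjusted p = 0.22). Both libraries that stood apart for the ribosomal protein genes lay at the edge of their group here. Untreated replicate 3 had the highest untreated value, 263 FPKM, and RAAS-blocked replicate 4 the lowest RAAS-blocked value, 33.5 FPKM, inside the untreated range. For Akr1b7, another gene of renin cells, untreated replicate 3 had 16.8 FPKM and RAAS-blocked replicate 4 had 2.70 FPKM. The balance of signs, the mean correlation of the members and their correlation with immune markers are given with and without these libraries. Values of single genes include both libraries unless stated. Rn18s, the 18S ribosomal RNA of the small subunit, had 0 FPKM in each of the 9 untreated libraries and 2214 FPKM or more wherever RAAS was blocked, and was 1 of the 2 genes with an adjusted call over the whole table (limma adjusted p = 3.5e-15). The library numbers in the labels also form a separate block for each group, so library handling and treatment cannot be told apart.

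In each ribosome these proteins are built around ribosomal RNA into a small subunit, which reads the messenger RNA, and a large subunit, which joins amino acids. Vertebrate messages of these proteins begin with a C followed by an unbroken run of C and U, the terminal oligopyrimidine motif, through which the mTORC1 kinase sets their translation together. They are among the most abundant messages of most cells. They also have many processed pseudogenes with nearly the same sequence, so how reads were shared among copies can change the value of a single gene.

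The start of the transcript is shown for a few members, since it is the sequence feature by which the family is known. Each window below holds 10 bases before the annotated start and the 20 from the start on, from the RefSeq promoter table (GRCm38.p6), which had 62 of the 83 members. The capitals mark the longest run that opens with C, goes on with only C or T, and begins within 5 bases of the start. The first 6 carry a run of at least 6 bases, and the last 4 do not.
Rps27, chr3:90213629-90213658, minus strand: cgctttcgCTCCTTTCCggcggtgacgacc
Rps18, chr17:33955646-33955675, minus strand: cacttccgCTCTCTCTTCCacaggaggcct
Rps6, chr4:86857348-86857377, minus strand: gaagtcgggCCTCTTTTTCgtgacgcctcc
Rpl13a, chr7:45128726-45128755, minus strand: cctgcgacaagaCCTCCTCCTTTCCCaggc
Rpl38, chr11:114668570-114668599, plus strand: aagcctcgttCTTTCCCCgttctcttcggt
Rpl22l1, chr3:28805498-28805527, plus strand: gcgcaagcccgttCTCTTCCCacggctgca
Rpl41, chr10:128549149-128549178, minus strand: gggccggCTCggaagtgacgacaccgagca
Rps13, chr7:116334171-116334200, minus strand: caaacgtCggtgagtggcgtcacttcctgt
Rpl7l1, chr17:46782637-46782666, minus strand: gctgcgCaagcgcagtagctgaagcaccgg
Rps19bp1, chr15:80264287-80264316, minus strand: cggaagtagCTCgccgcgtgtgggcggggc

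Of the 62 members with a promoter entry, 26 (41.9%) had a run of at least 6 bases, against 13.1% of 10067 tested genes and 11.9% of all 27025 genes with an entry. Within 50 bases on either side of the start, a run of at least 8 bases was found in 82.3% of the members and in 32.4% of the tested genes. The median longest run in that window was 10 bases for the members and 6 for the tested genes. The annotated start can lie a few bases from the start used in these glomeruli, and a run that is missed says only that these letters were not found in the window. Transcripts of the members were also short, with a median length of 833 bases in GENCODE M21 against 2838 for all tested genes that matched by symbol. Their median GC content was 51.7%, against 50.7%.

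Ribosomal protein messages were abundant in both groups. The median of the members' mean levels was 409 FPKM, against 11.5 FPKM over all tested genes. Together the members made up 7.94% ± 0.57 (SD, n = 9) of the summed FPKM of tested genes in untreated libraries and 7.82% ± 0.34 (SD, n = 7) in RAAS-blocked libraries. The sum includes Rn18s, at 0 in untreated libraries and at a mean of 3983 FPKM in RAAS-blocked libraries, which lowers the RAAS-blocked share. Levels are per length, but they also depend on the annotation used and on reads shared among copies, so comparisons between genes are approximate. Member means ran from 7.37 FPKM for Rpl5 to 1146 FPKM for Rps27, and 76 of the 83 members averaged at least 100 FPKM. The median member mean was 402 FPKM for the large subunit and 458 FPKM for the small subunit.

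The 5 highest members were Rps27, Rpl41, Rplp1, Rps29 and Rps15, with means from 686 FPKM (Rps15) to 1146 FPKM (Rps27). Rps27 encodes a zinc-binding protein of the small subunit. It ran from 986 to 1304 FPKM in untreated libraries, with a median of 1111, and from 1001 to 1315 FPKM in RAAS-blocked libraries, with a median of 1165. Rpl41 encodes a very small basic peptide of the large subunit, and ran from 936 to 1124 FPKM (median 1023) in untreated and from 750 to 1282 FPKM (median 983) in RAAS-blocked libraries. For Rps27 the 2 ranges nearly coincided, and for Rpl41 the untreated range lay inside the wider RAAS-blocked range.

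The stalk of the large subunit, which recruits translation factors, is made of Rplp0 and of the small acidic proteins Rplp1 and Rplp2. Rplp1 ran from 900 to 1238 FPKM (median 938) in untreated and from 580 to 1182 FPKM (median 1004) in RAAS-blocked libraries. Rplp2 ran from 529 to 789 FPKM and from 399 to 729 FPKM, and Rplp0 from 328 to 462 FPKM and from 276 to 447 FPKM. All 3 stalk genes were highest in untreated replicate 3 and lowest in RAAS-blocked replicate 4, and their group ranges overlapped. In the stalk, Rplp1 was therefore listed at a higher level per length than Rplp0 in every library.

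**Figure D1:**
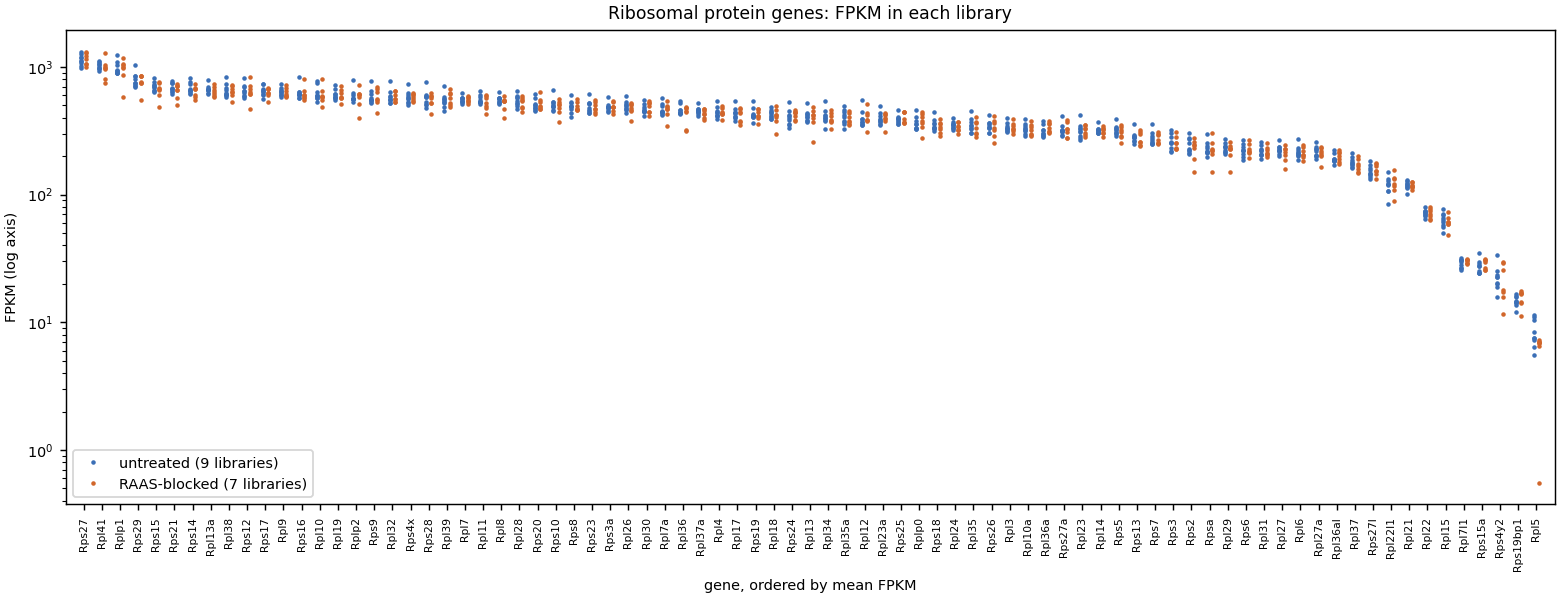
FPKM of 81 of the 83 ribosomal protein genes (log axis) in 9 untreated libraries (blue) and 7 RAAS-blocked libraries (orange), 1 point per library, with genes ordered by mean FPKM. The group ranges overlap for every gene, and the lowest gene, Rpl5, has 1 RAAS-blocked library at 0.554 FPKM.

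At the low end were Rpl5, Rps19bp1, Rps4y2, Rps15a and Rpl7l1. Rps19bp1, which encodes a nucleolar partner of the small subunit protein Rps19, and Rpl7l1, a paralog of Rpl7 used in ribosome assembly, match the name rule but are not core ribosomal proteins. They averaged 14.97 and 29.4 FPKM. Rps4y2 is an older symbol of a second copy of Rps4x, and averaged 21.9 FPKM. Rpl5, which carries 5S ribosomal RNA into the large subunit, and Rps15a, a core small subunit protein, averaged 7.37 and 28.0 FPKM. Rpl11, the partner of Rpl5 in the 5S particle, averaged 558 FPKM ± 44.6 (SD, n = 9) in untreated and 527 FPKM ± 62.2 (SD, n = 7) in RAAS-blocked libraries. Among core members the next lowest were Rpl15 (62.4 FPKM) and Rpl22 (71.6 FPKM), so Rpl5 stood far below them and Rps15a less so. Whether this is their level or an estimate lost to near-identical copies was not tested. Transcript length in GENCODE M21 was 5154.5 bases for Rps15a and 2045 for Rpl5, against a member median of 833. Rps20, at 3706 bases, averaged 512 FPKM. The part of the length used for FPKM was not tested either.

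Next to the limit of the rule, the 3 lowest members had their 7th highest library at 7.21 FPKM (Rpl5), 15.9 FPKM (Rps19bp1) and 22.8 FPKM (Rps4y2). The 3 symbols that failed were paralogs: Rpl3l, the striated muscle form of Rpl3, reached at most 0.915 FPKM, Rpl39l was above 0 in 2 libraries, and Rpl10l was listed at 0 in all 16. Of the 83 members 82 were at or above 1 FPKM in every library, and Rpl5 was in 15.

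The first question was whether RAAS blockade changed these messages. No difference between the groups was detected for any ribosomal protein gene after adjustment. None of the 83 had a Benjamini-Hochberg adjusted p under 0.05 in limma on log2(FPKM + 1), where 2 of 13286 genes (0.0151%) did. None had an unadjusted p under 0.05, where 6.13% of all tested genes had, and in none did the 2 groups fail to overlap, where 0.0602% of all tested genes did. The lowest adjusted p of a member was 0.83 (limma). An exact rank-sum test on each gene found an unadjusted p under 0.05 for 1 member, Rpl5 (exact p = 0.0418), and none after adjustment. It found 757 such genes and no adjusted call over the whole table.

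The estimates were small and their intervals narrow. On the log2 scale the 95% interval of the difference, RAAS-blocked minus untreated, lay within 0.5 of zero on both sides for 81 of the 83 members and within 0.3 for 72. The exceptions at 0.5 were Rpl5 and Rps4y2. The mean was lower in RAAS-blocked libraries for 63 members and higher for 20, with a median of -0.03 against -0.02 over all tested genes, of which 55.3% were lower. Large subunit members were lower in 40 of 49 cases, with a median of -0.05. Small subunit members were lower in 23 of 34, with a median of -0.02.

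This balance of signs followed single libraries and scaling. Without untreated replicate 3 it became 46 higher and 37 lower, and without RAAS-blocked replicate 4 it became 40 higher and 43 lower. Without both, a pair chosen after seeing the data, 62 were higher and 21 lower. Leaving out RAAS-blocked replicate 6 gave 11 higher. Upper-quartile scaling gave 41 higher and 42 lower, quantile normalization 37 and 46, and median-of-ratios scaling 28 and 55. Without RAAS-blocked replicate 4 the adjusted calls among all genes were 0.0302% and again included no member.

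**Figure D2:**
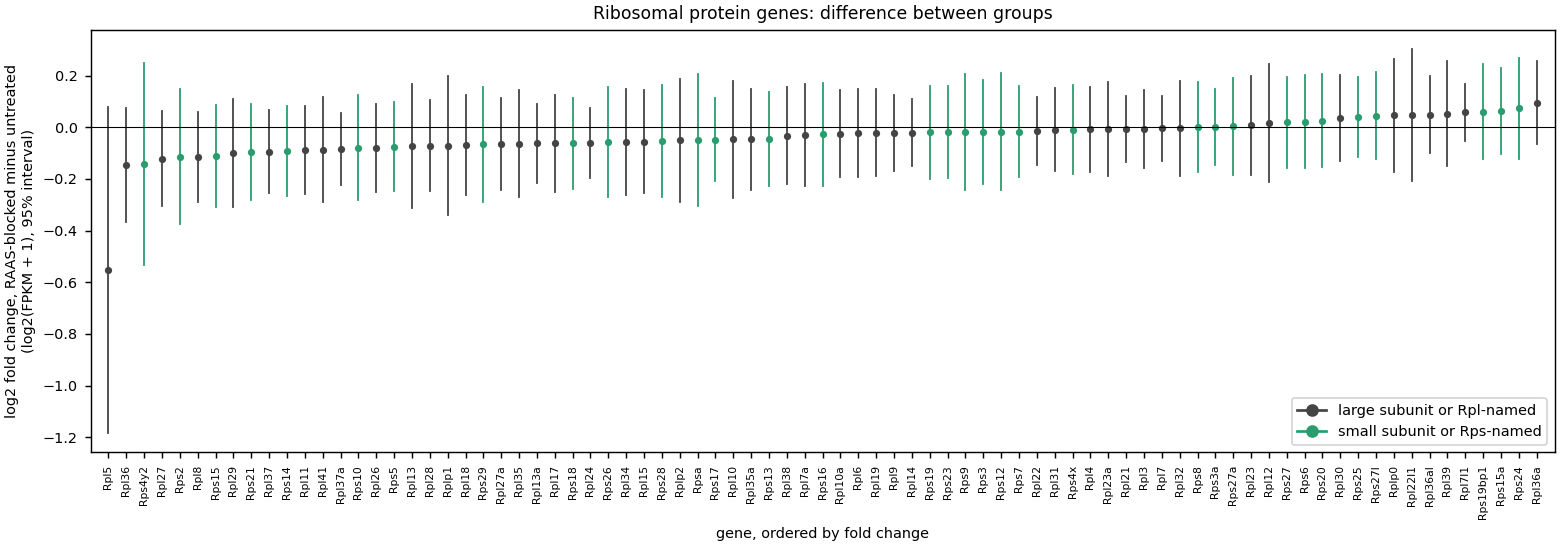
Log2 fold change (RAAS-blocked minus untreated, of log2(FPKM + 1)) of 81 of the 83 ribosomal protein genes with its 95% interval from limma, ordered by size, with large subunit genes in grey and small subunit genes in green. Every interval crosses zero, and all but those of Rpl5 and Rps4y2 stay within 0.5 of zero on both sides.

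Of the members with a lower mean, Rpl5 had the lowest p. It was listed at 5.59, 11.1, 7.60, 10.4, 11.5, 7.59, 6.45, 8.34 and 7.21 FPKM in untreated replicates 0 to 8. In RAAS-blocked replicates 0 to 6 it was listed at 6.92, 7.08, 6.49, 6.99, 0.554, 7.21 and 6.90 FPKM. RAAS-blocked replicate 4 thus stood far below the others of its group, which lay within the untreated range. The log2 difference was -0.55 ± 0.30 (SE; limma adjusted p = 0.83), and -0.22 without that library.

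Rpl27, Rpl8, Rpl36 and Rpl37a, all of the large subunit, had differences between -0.15 and -0.08 on the log2 scale. Rpl8, next to the peptidyl transferase centre, averaged 559 FPKM ± 36.8 (SD, n = 9) and 519 FPKM ± 64.9 (SD, n = 7). In each of these genes the group ranges overlapped.

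Among the members with a higher mean, Rpl36a had the lowest p. It was listed at 306, 300, 283, 380, 320, 320, 287, 359 and 294 FPKM in the untreated libraries and at 357, 306, 317, 335, 363, 310 and 375 FPKM in the RAAS-blocked libraries. The highest single value was in an untreated library, and the log2 difference was 0.09 ± 0.08 (SE; limma adjusted p = 0.90). Rps24, Rps15a, Rps19bp1, Rpl7l1 and Rpl36al followed, with differences between 0.05 and 0.07. Rps24, which takes part in maturation of the small subunit, averaged 404 FPKM ± 60.2 (SD, n = 9) and 423 FPKM ± 32.4 (SD, n = 7).

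Several members have a paralog, and some of these paralogs can take the same place in the ribosome. A ratio within a library cancels any scaling that paralog and parent gene share. Both genes passed the level rule in 5 pairs. Rpl22l1 made up 62.0% ± 3.3 (SD, n = 9) of the summed FPKM of Rpl22l1 and Rpl22 in untreated libraries and 63.0% ± 2.8 (SD, n = 7) in RAAS-blocked libraries. It was the only paralog of the 5 listed above its parent gene, and it was so in all 16 libraries. Rpl36al made up 37.9% ± 2.0 and 37.1% ± 2.1 of its pair with Rpl36a, and Rps27l 11.9% ± 1.2 and 12.1% ± 0.8 of its pair with Rps27 (SD, n = 9 and 7). Rpl7l1 (4.96% and 5.16%) and Rps4y2 (3.70% and 3.48%) were minor members of their pairs.

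No difference between the groups was detected in any paralog ratio. The log2 ratio of Rpl22l1 to Rpl22 was higher by 0.06 in RAAS-blocked libraries (exact two-sided permutation p = 0.554 over all 11440 splits). For Rpl7l1 to Rpl7 the difference was 0.06 (exact permutation p = 0.255), for Rps27l to Rps27 0.03 (exact permutation p = 0.732), for Rpl36al to Rpl36a -0.05 (exact permutation p = 0.481) and for Rps4y2 to Rps4x -0.13 (exact permutation p = 0.451). After adjustment over the 5 pairs the exact permutation p-values were 0.692 to 0.732.

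**Figure D3:**
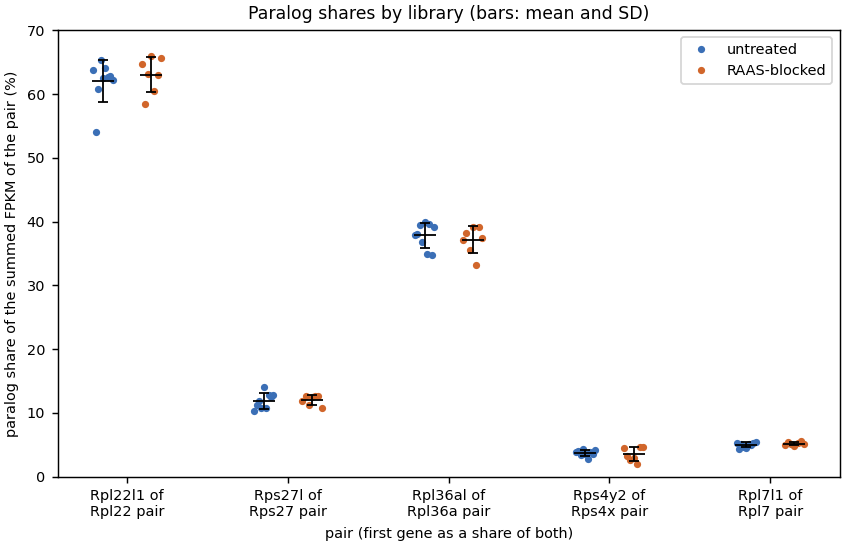
Share of the paralog in the summed FPKM of paralog and parent gene (percent) for 5 pairs, 1 point per library, untreated in blue and RAAS-blocked in orange, with the group mean and SD as black bars. Rpl22l1 makes up 54.0% to 65.9% of its pair, and the groups overlap in every pair.

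The second question was how these genes varied from library to library. The members varied little, with a median SD of 0.15 on the log2 scale over the 16 libraries, against 0.23 for all tested genes and 0.30 for the 671 other genes with a mean of at least 100 FPKM. Rpl7 (SD 0.08) varied least and Rpl5 (SD 0.67) most. The median member spanned 1.54 times from its lowest to its highest library.

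What variation there was, the members largely shared. The mean Pearson correlation over the 3403 pairs of members, on values centred within each group over 16 libraries, was 0.66, against 0.003 over all tested genes. Of the pairs, 77.8% had a correlation of at least 0.5, against 11.4% of all pairs of tested genes, and single pairs ran from -0.41 to 0.98. It was 0.63 within the large subunit, 0.69 within the small subunit and 0.66 between them. Within the untreated group it was 0.71 and within the RAAS-blocked group 0.62. These are descriptions of values that share a library and its scaling, and a difference between the groups was not tested.

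The size of this correlation depended on scaling and on a few libraries. With quantile normalization, which gives every library the same distribution of values, the mean was 0.29, with 35.3% of member pairs and 11.7% of all pairs at 0.5 or more. With upper-quartile scaling it was 0.52. Within the untreated group it was 0.49 without replicate 3, and within the RAAS-blocked group 0.77 without replicate 4. Over both groups it was 0.63 without these 2 libraries, a pair chosen after seeing the data. Other lists had values on both sides of the members: over their own genes the mean was 0.78 for 75 nuclear oxidative phosphorylation subunits, 0.42 for 75 mitochondrial ribosomal proteins and 0.41 for 38 proteasome subunits. With quantile normalization these became 0.76, 0.39 and 0.14.

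Rpl19, Rpl6, Rps9, Rps18 and Rps13 had the highest mean correlation with the other members (0.78 to 0.79). Rpl19, a large subunit protein that forms a bridge to the small subunit, is typical of the family. It was listed at 610, 596, 567.7, 728, 613, 586, 556, 673 and 576 FPKM in untreated replicates 0 to 8 and at 662, 570, 567, 626, 515, 580 and 703 FPKM in RAAS-blocked replicates 0 to 6. Untreated replicate 3 and RAAS-blocked replicate 6 were its highest libraries, and RAAS-blocked replicate 4 its lowest.

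The lowest mean correlations were those of Rps19bp1 (0.18), Rpl21 (0.26), Rps27l (0.30), Rpl7l1 (0.33) and Rpl5 (0.39). Apart from Rpl21 and Rpl5, these are the assembly factors and a paralog rather than core proteins. Rps27l, whose gene is a known target of p53, ran from 133 to 182 FPKM in untreated and from 134 to 178 FPKM in RAAS-blocked libraries, and its highest library was untreated replicate 4. Members with a pyrimidine run at the start had a mean correlation of 0.69 with the other members (26 genes), and members without one 0.63 (36 genes). Rps18, shown above with an 11-base run, and Rps13, shown with none beyond a single C, both belonged to the 5 highest.

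**Figure D4:**
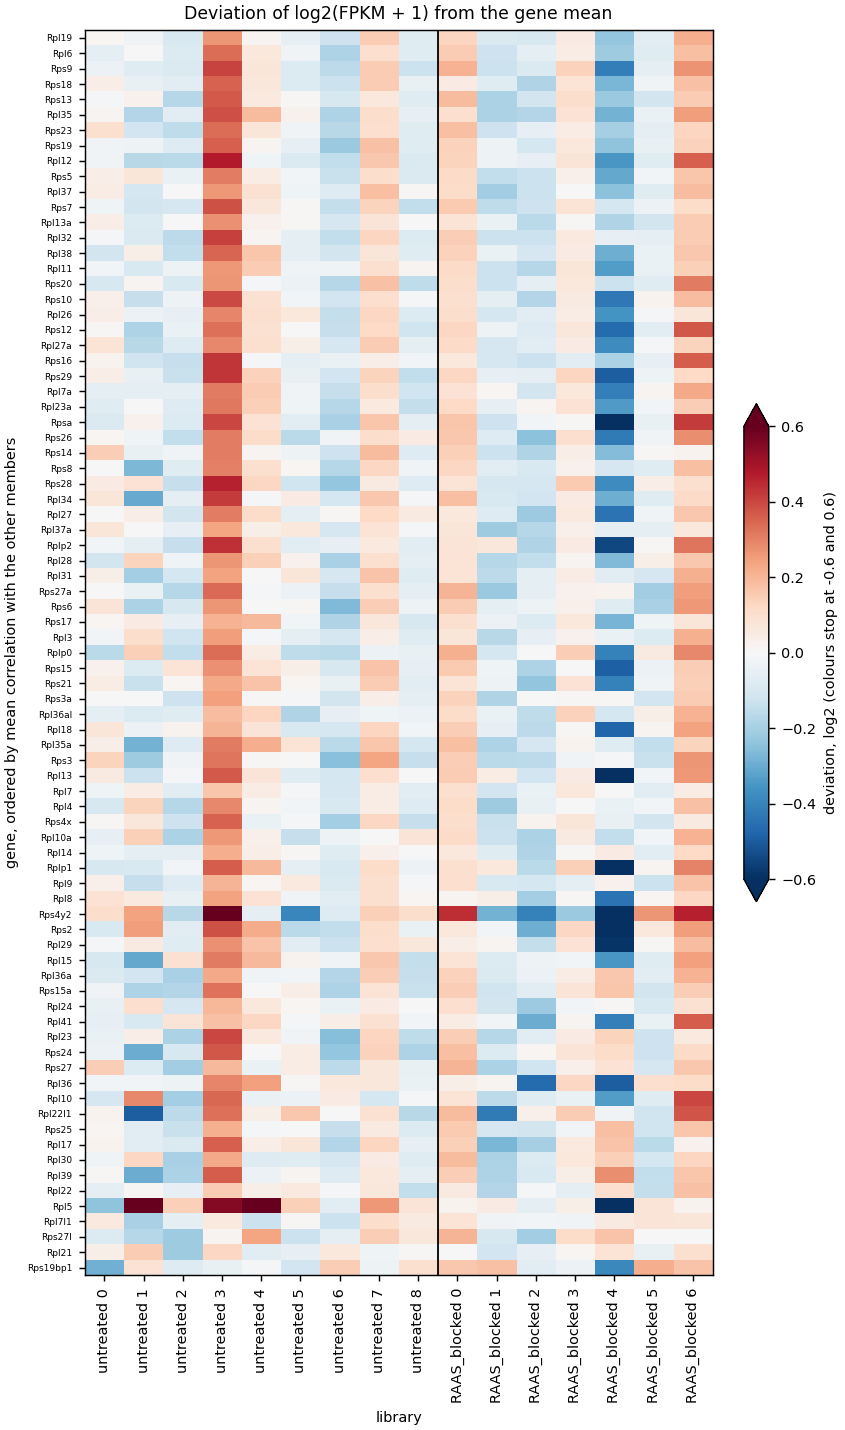
Deviation of log2(FPKM + 1) from the gene mean for 81 of the 83 ribosomal protein genes (rows, ordered by mean correlation with the other members) in 9 untreated and 7 RAAS-blocked libraries (columns), red above and blue below, with colours stopped at -0.6 and 0.6. Untreated 3 is red in nearly every row, and RAAS-blocked 4 ranges from deep blue to light red.

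The level of the family in a library was taken as the mean deviation of its members from their gene means on the log2 scale. In untreated replicates 0 to 8 it was -0.01, -0.04, -0.09, 0.30, 0.07, -0.02, -0.11, 0.10 and -0.05. In RAAS-blocked replicates 0 to 6 it was 0.12, -0.10, -0.12, 0.05, -0.24, -0.04 and 0.18. The 2 groups overlapped, and both had high and low libraries. Untreated replicate 3 was the highest: 68 of the 83 members had their highest value there, and their levels summed to 42304 FPKM against a group mean of 34702 FPKM ± 3283 (SD, n = 9). The level of the family followed the mean deviation of all tested genes (Pearson r = 0.76 over 16 libraries, on group-centred values). Without the 2 libraries farthest from the median of that mean deviation the correlation was 0.60. The mean deviation of all tested genes itself ran only from -0.10 in RAAS-blocked replicate 4 to 0.06 in untreated replicate 3. With quantile normalization untreated replicate 3 stayed highest at 0.14, while RAAS-blocked replicate 6 went to -0.02 and RAAS-blocked replicate 4 to -0.04.

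In RAAS-blocked replicate 4 the members did not move together. Its level was the lowest, and 47 members had their lowest value there, yet 19 of the 83 were above their gene mean, and the deviations ran from -2.33 (Rpl5) to 0.28 (Rpl39). The SD of the members' deviations was 0.33 in this library and 0.06 to 0.16 in the other 15. Named after their values were seen, Rps4y2, Rplp1, Rpl13, Rps2, Rpsa, Rpl29 and Rplp2 were, with Rpl5, the 8 members at least 0.5 below their mean. Across the 83 members the deviation in this library had a correlation of -0.32 with transcript GC content. This was inside the range of the other 15 libraries, from -0.54 (RAAS-blocked replicate 2) to 0.49 (RAAS-blocked replicate 5). Across all tested genes it was -0.46 in this library and from -0.14 to 0.18 in the other 15. This library also had 16919 symbols above 0, against 17993 to 18613 in the others, and the highest value of Rn18s (9925 FPKM). The part of RNA quality in these values was not tested.

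Immune marker levels varied widely between libraries, and the ribosomal protein level moved with them in most libraries. This comparison was not planned, and it is given as a description. Of 10 immune markers 8 were tested, and all 8 had estimates that were higher in RAAS-blocked libraries without passing the test. Cd3e, a marker of T cells, stayed under 1 FPKM in every library. The summed FPKM of the tested markers ran from 328 to 3715 in untreated and from 323 to 1884 in RAAS-blocked libraries. Untreated replicate 3 had the highest marker level and the highest value of the leukocyte gene Ptprc (41.0 FPKM), the macrophage gene Csf1r (150 FPKM) and the antigen presentation gene Cd74 (1927 FPKM). The myeloid gene Itgam was at 12.6 FPKM there and reached 24.4 FPKM in a RAAS-blocked library.

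Across the 16 libraries the ribosomal protein level had a Pearson correlation of 0.84 and a Spearman correlation of 0.76 with the mean log2 level of these markers, both centred within each group. Without the 2 libraries farthest from the median marker level it was 0.69. Within the untreated libraries it was 0.95, within the RAAS-blocked libraries 0.72, and with quantile normalization 0.82. Over both groups it was 0.74 without untreated replicate 3 and 0.81 without RAAS-blocked replicate 4. RAAS-blocked replicate 2 went the other way, with a marker level of 6.11 and a ribosomal protein level of -0.12. A correlation of this size was not particular to immune markers. For 38 proteasome subunits it was 0.81, and 0.73 without the 2 libraries farthest from the median of that list. Of the 83 members 72 had a correlation of at least 0.5 with the marker level, against 11.8% of all tested genes. Rps19bp1 (-0.02), Rpl21 (0.12) and Rps27l (0.18) were the lowest. With the marker level taken out of each gene the mean correlation among members was 0.40. In bulk RNA a change in the number of cells and a change in RNA per cell cannot be told apart, and the part of immune cells in the ribosomal protein level was not tested.

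**Figure D5:**
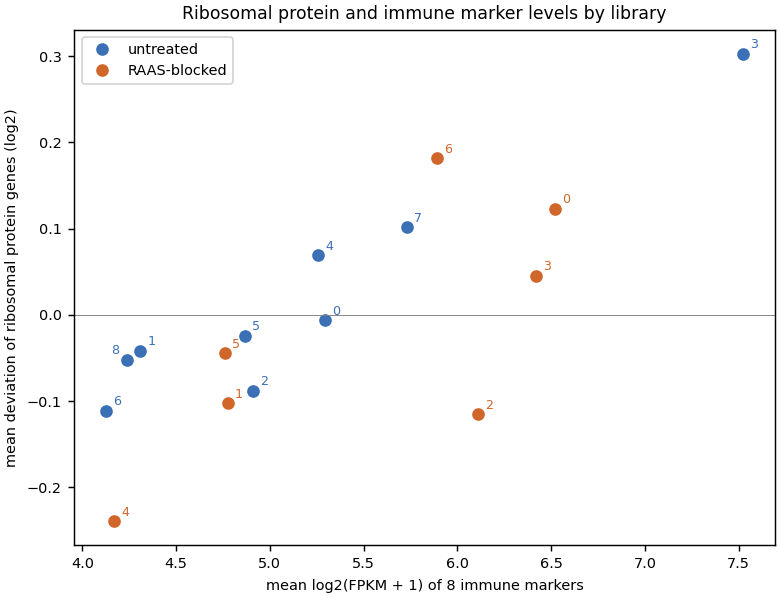
Ribosomal protein level (mean deviation of 83 genes, log2) against the mean log2(FPKM + 1) of 8 immune markers in each library, untreated in blue and RAAS-blocked in orange, numbered by replicate. The levels rise with the markers from RAAS-blocked 4 (-0.24) to untreated 3 (0.30), with RAAS-blocked 2 below the others at its marker level.

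Over all 16 libraries markers of the other cells of the preparation had smaller correlations with the ribosomal protein level than the immune markers. The correlation was 0.11 with 12 podocyte markers, -0.12 with 13 endothelial markers, 0.36 with 11 mesangial and smooth muscle markers and -0.21 with 13 proximal tubule markers. Without the 2 libraries farthest from the median of each list these became 0.04, -0.42, 0.13 and -0.01. Within single groups some were larger: for podocyte markers the correlation was -0.40 in untreated and 0.67 in RAAS-blocked libraries, and for endothelial markers 0.25 and -0.75. Their part in the ribosomal protein level was not tested. The podocyte gene Nphs1 (181 to 470 FPKM), which encodes nephrin of the filtration slit, was high in every library. Podxl, another podocyte marker, was listed at 0 throughout.

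Some ribosomal proteins are encoded by genes with other names. Fau makes a ribosomal protein fused to a ubiquitin-like part, and Gnb2l1 makes the scaffold Rack1 of the small subunit. Their correlations with the family level were 0.94 and 0.92. Neither passed the test, and both had lower means in RAAS-blocked libraries. Fau averaged 536 FPKM ± 69.8 (SD, n = 9) and 480 FPKM ± 80.3 (SD, n = 7), a log2 difference of -0.17 ± 0.11 (SE). Proteasome subunits, which are not part of the ribosome, had a correlation of 0.81 with the family level. The value was 0.69 for elongation factors and other terminal oligopyrimidine messages, 0.55 for ribosome biogenesis factors and 0.22 for mitochondrial ribosomal proteins. Without the 2 libraries farthest from the median of each list these became 0.73, 0.32, 0.44 and 0.20.

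The factors that build ribosomes had mostly higher means in RAAS-blocked libraries. None of 51 ribosome biogenesis genes passed the adjusted test. The mean was higher for 43 of 51, with a median log2 difference of 0.10, where 5944 of the 13286 tested genes had a higher mean. Of the 51, 9 were higher with an unadjusted p under 0.05 in limma, as were 360 of the 13286 tested genes. Grwd1, a histone-binding factor of large subunit assembly, averaged 4.69 FPKM ± 0.38 (SD, n = 9) and 5.97 FPKM ± 0.76 (SD, n = 7), a log2 difference of 0.29 ± 0.07 (SE; limma adjusted p = 0.42). Ftsj3, a methyltransferase of ribosomal RNA processing, averaged 13.6 FPKM ± 1.1 (SD, n = 9) and 16.1 FPKM ± 1.7 (SD, n = 7). The count was 46 of 51 under quantile normalization, the same under upper-quartile scaling, 45 with median-of-ratios scaling and 46 without RAAS-blocked replicate 4. With array weights it was 41 of 51, with a median of 0.06 and 6 genes at an unadjusted p under 0.05.

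RNA polymerase I subunits and factors, which make the large ribosomal RNAs, had higher means in 12 of 14 cases with a median of 0.09, and none passed the adjusted test. Taf1d, of the initiation complex of this polymerase, averaged 10.8 FPKM ± 1.6 (SD, n = 9) and 13.8 FPKM ± 3.2 (SD, n = 7), with its highest value, 20.0 FPKM, in RAAS-blocked replicate 4. Of 24 mTORC1 and translation control genes 9 had higher and 15 lower means, and none passed. Sesn1, a stress-induced inhibitor of mTORC1, averaged 22.6 FPKM ± 3.5 (SD, n = 9) and 16.1 FPKM ± 4.6 (SD, n = 7), a log2 difference of -0.50 ± 0.16 (SE; limma adjusted p = 0.64). Gas5 is a noncoding host of small nucleolar RNAs whose transcript is known to begin with an oligopyrimidine run. It averaged 5.66 FPKM ± 0.73 (SD, n = 9) and 8.06 FPKM ± 2.13 (SD, n = 7), a log2 difference of 0.42 ± 0.13 (SE; limma adjusted p = 0.65). Of 9 such host genes 6 had higher and 3 lower means. Of 15 elongation factors and other terminal oligopyrimidine messages 8 had higher and 7 lower means. The lowest p of these 15 was that of Eif4b, with a log2 difference of -0.22 ± 0.08 (SE; limma adjusted p = 0.75).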

How the data were processed

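The authors deposited 1 table of FPKM values for 16 libraries; the tools listed in the submitters' processing notes, without roles, are Cuffdiff 2.2.1, Cufflinks, TopHat2 2.0.8, FastQC and CASAVA 1.8.2. Genome build, annotation and strand: not given in the sources used here. Libraries were made with a TruSeq mRNA kit, per the labels' protocols. With no counts deposited, depth is unknown.

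The 13286 genes that reached 1 FPKM in 7 or more libraries were tested on log2(FPKM + 1), a scale that understates changes of low genes, with limma 3.58.1 in R 4.3.3 (group as the only term, mean trend, robust moderation), with Benjamini-Hochberg adjustment over all of them at 0.05. In simulated data with the same genes, each with independent normal noise, the test recovered 62.7% of 67 genes given a log2 change of 0.5. In the real libraries genes vary together, so this share does not measure the power of the test here. Correlations are Pearson's on group-centred values. Paralog ratios, log2((paralog + 1)/(parent + 1)), were tested by exact permutation. Starts came from RefSeq (GRCm38.p6), lengths and GC from GENCODE M21, all by symbol, with no coordinates taken from the authors' table.

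The members and gene lists were chosen with earlier results of these data known. Members named are those with the lowest p (6 with a higher and 6 with a lower mean), the 5 highest and lowest by level and by mean correlation, the paralog pairs and those next to the limit of the level rule, 32 in all. From other lists up to 2 genes with the lowest p are named. Genes outside this naming rule (among them the members Rplp0, Rplp2 and Rpl11, and Fau, Gnb2l1 and cell type markers) were named for their role or after their values were seen. A few genes are neither reported nor plotted here. Alternatives covered pseudocount, filter, scaling, quantile normalization, array weights, a replicate block, a tubule covariate, a rank test and each library left out.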

Additional observations from a re-analysis of the deposited data

Results flagged for a closer look

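Of 78 groups of values tested, 12 had a library far from the others of its group. For 1 group alone chance gives about 1 in 20. Members vary together over the same libraries, so the 12 are not independent and their number cannot be set against chance. Untreated replicate 3 accounted for 8: Rpl39 at 715 FPKM (others 453 to 581), Rpl6 at 271 FPKM (188 to 230), Rpl8 at 636 FPKM (515 to 575), Rps13 at 360 FPKM (248 to 292), Rps15a at 35.2 FPKM (24.4 to 29.5), Rps29 at 1046 FPKM (701 to 854), Rps9 at 773 FPKM (522 to 648) and the immune marker level at 7.52 on the log2 scale (4.13 to 5.73). RAAS-blocked replicate 4 accounted for 2, both low: Rpl5 at 0.554 FPKM, with the others at 6.49 to 7.21, and Rps29 at 551 FPKM, with the others at 745 to 849.

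The other 2 were paralog ratios within the untreated group. The log2 ratio of Rpl22l1 to Rpl22 was 0.23 in replicate 1 and 0.62 to 0.91 in the others. The log2 ratio of Rps4y2 to Rps4x was -5.09 in replicate 5 and -4.75 to -4.41 in the others.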

How the results depend on the processing

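In all 29 settings of the test no ribosomal protein gene was called and none had an unadjusted p under 0.05 with limma, and the lowest adjusted p of a member was 0.53. With array weights 11 genes were called over the whole table, against 2. The median log2 difference of the members ran from -0.07 (without RAAS-blocked replicate 6) to 0.006 (without untreated replicate 3) when 1 library was left out. The median was 0.03 without untreated replicate 3 and RAAS-blocked replicate 4, a pair chosen after seeing the data. Of 160 estimates of 32 named members under 5 alternatives, 18 had the other sign. With the replicate block the median was -0.03 with no member called. Same-numbered libraries had correlations of -0.28 to 0.43 over 7 pairs, and 1 of 7 was closest to its own number. Likeness of expression cannot show whether the numbers pair the libraries.

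The mean correlation among members, 0.66, ran from 0.57 to 0.72 when 1 library was left out. It was 0.516 with upper-quartile scaling, 0.294 with quantile normalization, 0.4999 without untreated replicate 3 and RAAS-blocked replicate 6 and 0.402 with the immune marker level taken out; the last 2 were chosen after seeing the data. With quantile normalization the family level was 0.136 in untreated replicate 3, -0.041 in RAAS-blocked replicate 4 and -0.024 in RAAS-blocked replicate 6. The cause was not tested.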
